A study of Homo sapiens with 3 samples.

Results

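A minority of Kelly cells that had become fully resistant to the ALK inhibitor TAE684 still carried RNA of RGS5, a gene that nearly every sensitive and intermediate resistant cell expressed. These RGS5-retaining cells were taken from the fully resistant library alone. A barcode counted as a cell at 9500 or more UMIs (counts of distinct RNA molecules), 500 or more genes and at most 20% of UMIs from mitochondrially encoded genes. Cells with 6 or more RGS5 UMIs were members, and cells of the same library with 0 RGS5 UMIs were the reference. There were 772 members among 5843 fully resistant cells, which is 13.2% (exact Clopper-Pearson 95% interval 12.4% to 14.1%), and among 16586 cells in the series. The reference held 3055 cells, and 2016 cells with 1 to 5 RGS5 UMIs entered neither group. Since RGS5 chose the cells, it was left out of every comparison, and its own values are a description.

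Kelly is an established human neuroblastoma line with extra copies of MYCN and a mutant, active ALK receptor. It was profiled by droplet single-cell RNA sequencing (10x Genomics 3' chemistry) in 3 states, each grown in the same serum-containing medium: sensitive cells kept in the vehicle DMSO, intermediate resistant cells in 500 nM TAE684, and fully resistant cells in 1 µM TAE684. Every state was 1 library (n = 1), so nothing here was tested between cultures and no p-value is given. All intervals below are 95% intervals of counting error only.

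RGS5 belongs to the regulators of G protein signalling, proteins that speed the GTP hydrolysis of G protein alpha subunits and so shorten the signal of their receptors. In tissues it is best known as a marker of pericytes and other mural cells, which wrap small blood vessels. Neuroblastoma arises from the sympathetic and adrenal lineage. Its adrenergic cells are held in that state by transcription factors such as PHOX2A, HAND2 and GATA3, make catecholamines through TH, DDC and DBH, and store them with granins and neuropeptides in dense core vesicles.

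RGS5 stood at 3054 CPM (a gene's UMIs scaled to a fixed total) in the sensitive library, 3061 CPM in the intermediate resistant library and 146 CPM in the fully resistant library. A sensitive cell held a median of 55 RGS5 UMIs and an intermediate resistant cell 50, against 0 in the fully resistant library. The limit of 6 UMIs was reached by 4905 of 4907 sensitive cells and by 5827 of 5836 intermediate resistant cells. Members held a median of 10 RGS5 UMIs and at most 66, and reached 768 CPM, so they were below the level of the other libraries. The 772 members carried 72.0% of all RGS5 UMIs of the fully resistant cells. Counts ran on from 0 without a gap: 163 cells held exactly 5 RGS5 UMIs and 118 held exactly 6.

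**Figure D1:**
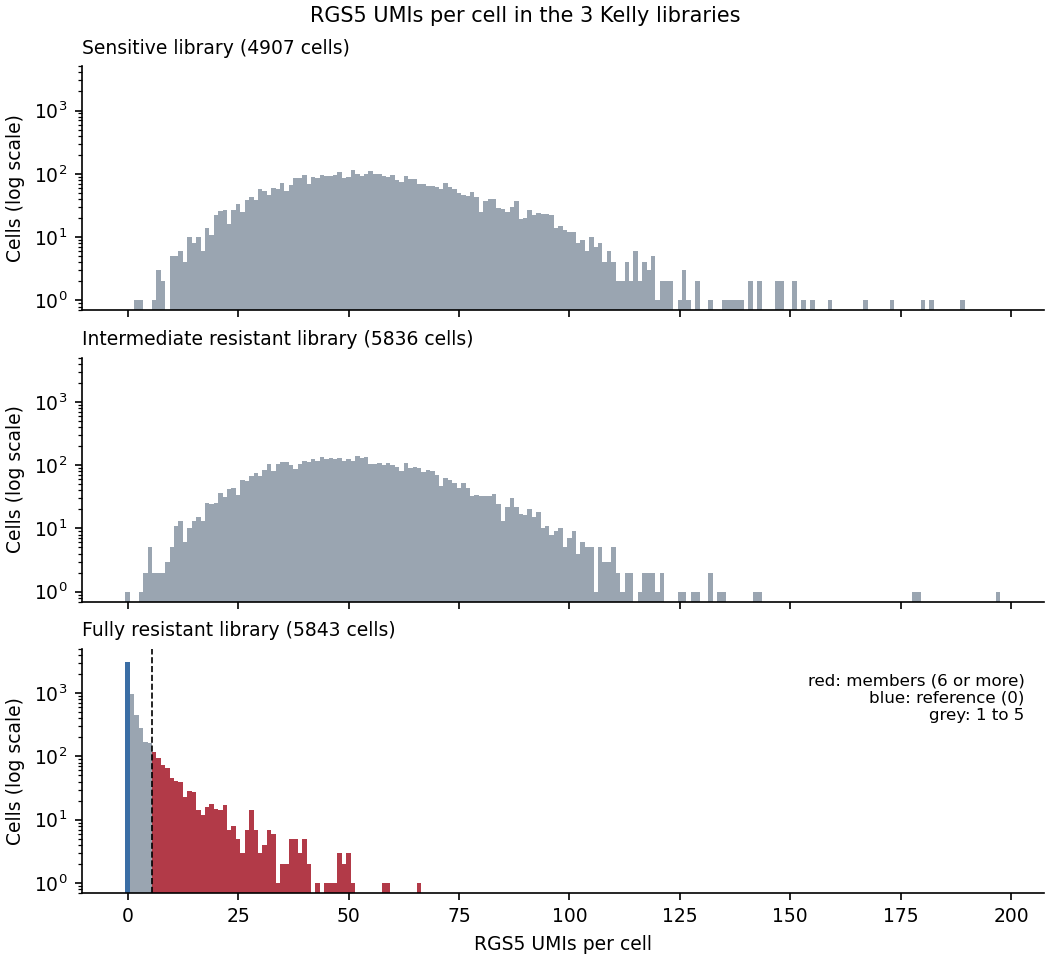
Number of cells (log scale) by RGS5 UMIs per cell in the sensitive, intermediate resistant and fully resistant libraries. Counts in the sensitive and intermediate resistant libraries centre on medians of 55 and 50, while fully resistant cells fall away from 0 in a tail whose members (red, 6 or more, right of the dashed line) reach 66.

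Members were somewhat deeper than the reference, with a median of 17100.5 against 16010.0 UMIs per cell, as a minimum count of any gene favours deep cells. Their share climbed from 10.9% of cells with 9500 to 12000 UMIs to 16.8% of cells above 30000 UMIs, and 408 cells kept 6 or more RGS5 UMIs after thinning to 9500. Detected genes per cell were alike (median 3666 against 3672), mitochondrial UMIs made up 6.76% against 6.41%, and cytosolic ribosomal protein genes 36.6% against 32.2%. Barcodes with 1 to 100 UMIs, which hold free RNA, had RGS5 at 153 CPM in this library. A cell made wholly of such RNA would hold on average 1.45 RGS5 UMIs at 9500 UMIs and 2.62 at the members' median depth. These are expected means that single cells can exceed, and they grow with depth, which reached 59289 UMIs among members. How many members free RNA alone could bring to the limit of 6 was not tested. In the same barcodes SST stood at 386 CPM, TH at 254, CTCFL at 117, RGS4 at 53.9, NDUFA4L2 at 15.6 and CRH at 3.66 CPM. Shares of cells with a UMI of these genes include free RNA in both groups, and its part was not tested. Of the members, 14 (1.81%) carried a barcode that was also a cell in another library, and so did 45 reference cells (1.47%). The direction differed by library. With the intermediate resistant library 9 members (1.17%) and 18 reference cells (0.589%) shared a barcode, and with the sensitive library 5 (0.648%) and 27 (0.884%). No doublet caller was run, and 10.2% of members and 7.04% of reference cells had over 25000 UMIs.

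Members differed from the reference in a limited set of genes. UMIs were summed over each group and divided by the group's total without RGS5, and a gene was called when the groups differed at least 1.5-fold and the higher group had 20 CPM or more. Of 5034 genes that reached 20 CPM, 65 (1.29%) were higher and 104 (2.07%) were lower in RGS5-retaining cells. With a lower bar, the higher group at least 25% above the lower, the counts were 142 (2.82%) and 588 (11.7%). With the higher ribosomal protein share of the members, the median log2 ratio of all measured genes was -0.14. Scaling by TMM or by median of ratios moved that median to -0.05 and -0.03, and the split of higher to lower genes from 65 to 104 (38.5% higher) to 83 to 78 (51.6%) and 87 to 70 (55.4%). Totals without mitochondrial and ribosomal protein genes, which also let genes of lower level reach 20 CPM, gave 142 to 105 (57.5%). List medians below should therefore be read against -0.14, and not against 0. Counts of calls in a list are likewise to be read against 1.29% higher and 2.07% lower among all measured genes. When both groups were compared within strata of equal depth, 64 of the 65 higher and 102 of the 104 lower genes were called again. Among cells with at most 25000 UMIs, 64 and 96 of them were.

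**Figure D2:**
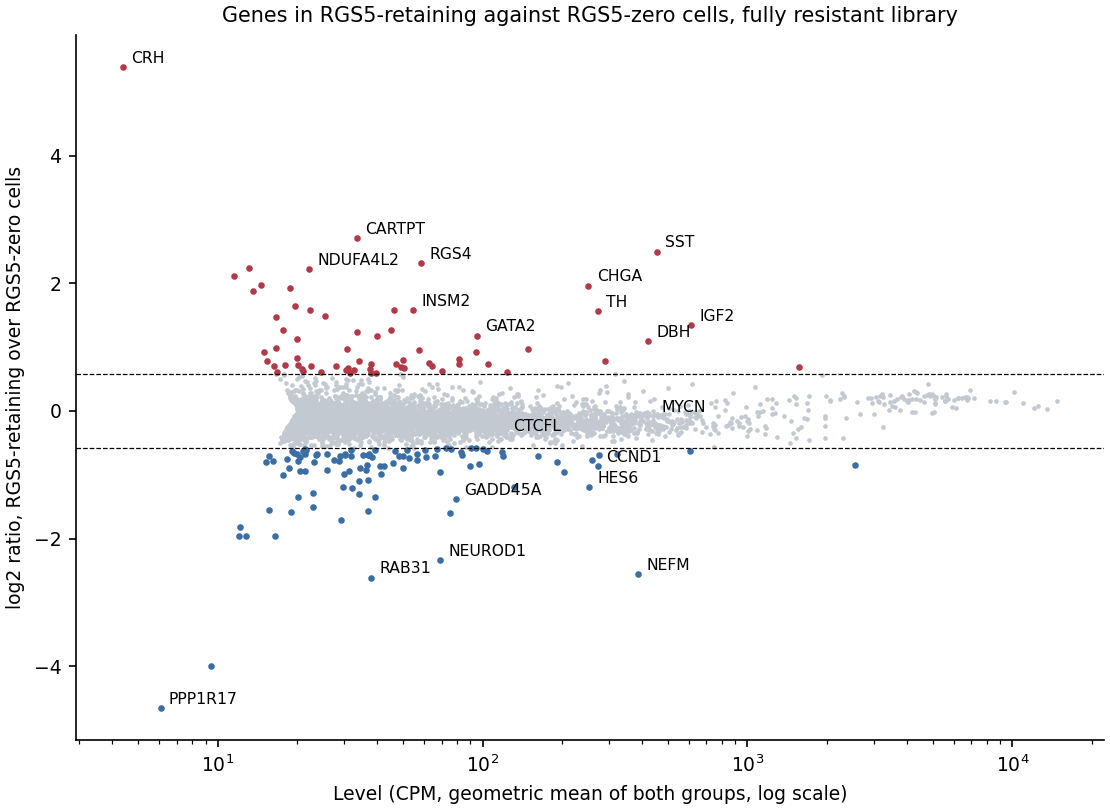
Log2 ratio of RGS5-retaining over RGS5-zero cells of the fully resistant library against the level of each of 5034 measured genes (CPM, geometric mean of both groups, log scale). Dashed lines mark a ratio of 1.5 either way; the 65 higher genes (red) include SST, CHGA and TH at high level, and the 104 lower genes (blue) include NEFM, NEUROD1 and HES6.

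Neuropeptides gave the 3 greatest ratios, those of CRH, CARTPT and SST. Of 13 measured genes of this list, 6 were higher (CRH, CARTPT, SST, NPY, CHGA and CHGB) and 1 was lower (SCG2), with a median log2 ratio of 0.34. The shares of all measured genes were 1.29% higher and 2.07% lower. SST, the precursor of the inhibitory peptide somatostatin, stood at 1079.8 CPM in members and 191 CPM in the reference, and at 53.8 CPM in the sensitive and 688 CPM in the intermediate resistant library. That is a ratio of 5.65 (5.51 to 5.80) within the fully resistant library, with members above both other libraries and the reference between them. CARTPT, which encodes the peptide CART, stood at 86.1 CPM against 13.1 CPM, a ratio of 6.56 (5.97 to 7.22). Its levels in the other libraries were 2.94 CPM (sensitive) and 291 CPM (intermediate resistant). CHGA, which encodes the vesicle protein chromogranin A, stood at 496 CPM against 127 CPM, a ratio of 3.90 (3.77 to 4.04), and its level was above both in the sensitive (714 CPM) and intermediate resistant (1293 CPM) libraries.

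CRH, the precursor of corticotropin-releasing hormone, had the highest ratio of all at 42.0 (29.7 to 61.2), from 398 UMIs in members (28.4 CPM) and 35 UMIs in the reference (0.675 CPM). It was a gene of few cells: at 9500 UMIs per cell, 6.09% of members and 0.327% of reference cells held a CRH UMI. The highest member held 70 CRH UMIs at that depth and the highest reference cell 7. The counting interval of the CRH ratio does not cover such unevenness among cells. NPY, the sympathetic peptide neuropeptide Y, stood at 28.8 CPM against 7.33 CPM (ratio 3.93), and CHGB at 46.7 CPM against 31.1 CPM, at the limit of the call with a ratio of 1.502. Galanin (GAL) stood at 236 CPM against 201 CPM, both well under its 678 CPM in the sensitive and 774 CPM in the intermediate resistant library. SCG2, another granin, went the other way, at 15.4 CPM in members and 29.5 CPM in the reference.

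Peptide RNA was unevenly spread over the members. With every cell thinned to 9500 UMIs, the median member held 1 SST UMI while the highest held 256, and the 78 members richest in SST carried 63.8% of the members' SST UMIs. The corresponding share was 76.8% for CARTPT, 33.4% for CHGA and 37.0% for TH. Reference cells held up to 112 SST UMIs, so the groups overlapped.

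A promoter table from RefSeq (GRCh38.p14) was searched for 5 short motifs in the 250 bases before each gene's start. The cAMP response element TGACGTCA, read on both strands (it is its own reverse complement), is the palindrome through which CREB family factors act on many peptide genes. It lay in 1.65% of all 35116 promoter windows and 2.03% of 27305 genes. These 27305 genes include genes not measured here, and the share among measured genes alone was not computed for any motif. Among the higher genes, 41 of 65 had a window, and the element was in 5 of these (12.2%): CARTPT, CHGA, MEG3, SGIP1 and SST. Among the lower genes it was in 2 of 79 (2.53%), and it was in neither of the 2 RGS5 windows. The peptide genes CRH, NPY and CHGB, also higher in members, were not among these 5, and whether each had a window is not reported here. Windows are shown for the 3 genes with the element among the 12 highest at 50 CPM or more. They run 5' to 3' on the gene's strand, with the element in capitals.
SST promoter, chr3:187670395-187670644, minus strand: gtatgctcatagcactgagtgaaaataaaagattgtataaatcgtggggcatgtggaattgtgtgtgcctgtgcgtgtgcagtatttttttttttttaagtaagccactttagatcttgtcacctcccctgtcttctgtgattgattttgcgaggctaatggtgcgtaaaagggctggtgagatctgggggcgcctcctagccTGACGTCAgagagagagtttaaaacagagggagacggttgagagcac
CARTPT promoter, chr5:71719025-71719274, plus strand: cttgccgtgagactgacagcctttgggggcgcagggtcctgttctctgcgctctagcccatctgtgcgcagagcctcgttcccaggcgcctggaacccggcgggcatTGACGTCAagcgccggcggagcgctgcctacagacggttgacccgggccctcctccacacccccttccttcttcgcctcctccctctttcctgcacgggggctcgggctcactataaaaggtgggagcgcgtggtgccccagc
CHGA promoter, chr14:92922900-92923149, plus strand: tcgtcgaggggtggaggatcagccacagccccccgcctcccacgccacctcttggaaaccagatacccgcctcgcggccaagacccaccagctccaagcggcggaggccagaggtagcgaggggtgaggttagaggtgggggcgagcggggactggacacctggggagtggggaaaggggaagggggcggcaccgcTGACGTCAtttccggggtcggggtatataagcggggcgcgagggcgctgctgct
The element begins 47 bases before the start of SST, 143 before that of CARTPT and 54 before that of CHGA. These matches are letters in a reference sequence and were not measured as bound sites in these cells. The other motifs were the E-boxes CAGATG and CAGCTG, the GATA motif GATAAG and the hypoxia response core ACGTG. In the same order, each on both strands, they lay in the windows of 12.2%, 24.4%, 12.2% and 29.3% of the higher genes, of 17.7%, 29.1%, 12.7% and 21.5% of the lower genes, and of 14.6%, 16.7%, 6.89% and 21.7% of all genes. The CAGCTG box is its own reverse complement, and ACGTG overlaps the core of TGACGTCA by its letters ACGT alone, so neither motif contains the other.

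Catecholamine genes were higher as a group: 7 of 10 measured genes were higher and 0 lower, against 1.29% and 2.07% of all measured genes. Their median log2 ratio was 0.76. TH, tyrosine hydroxylase, the rate-limiting enzyme of catecholamine synthesis, stood at 469 CPM in members, 158 CPM in the reference, 46.0 CPM in the sensitive and 293 CPM in the intermediate resistant library. Its ratio was 2.96 (2.86 to 3.06), and members had the highest TH level of these 4 sets of cells. A member held a median of 3 TH UMIs at 9500 UMIs and a reference cell 0, with 74.9% and 42.1% of cells holding any. DBH, which turns dopamine into noradrenaline, stood at 613 CPM against 288 CPM (ratio 2.13), beside 154 CPM in the sensitive and 610.4 CPM in the intermediate resistant library. DDC, the decarboxylase between TH and DBH, stood at 379.99 CPM against 220.06 CPM (ratio 1.73).

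The remaining higher genes of the pathway were those of vesicle electron supply, breakdown and the pterin cofactor. CYB561, the cytochrome that passes electrons into dense core vesicles for DBH, stood at 24.0 CPM against 5.57 CPM (ratio 4.31), still under its 168 CPM in the sensitive library. MAOA, which degrades catecholamines, stood at 51.4 CPM against 21.8 CPM (ratio 2.36). GCHFR, the feedback regulator of pterin synthesis, and QDPR, which recycles the pterin cofactor, had ratios of 1.66 and 1.52. GCH1, the enzyme that GCHFR regulates, was 18.0 CPM against 24.7 CPM. The transporters were low in both groups: SLC6A2, the noradrenaline transporter, was at 8.27 CPM against 3.36 CPM, beside 63.3 CPM in the sensitive and 34.4 CPM in the intermediate resistant library.

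Adrenergic transcription factors were mixed. Of 21 measured, 5 were higher (INSM2, LMO1, GATA2, HAND1 and TFAP2B), 3 were lower (INSM1, DACH1 and SOX4), and the median log2 ratio was 0.23. At the bar of 25%, 8 were higher and 6 lower, against 2.82% and 11.7% of all genes. GATA2, a zinc finger factor of sympathetic neurons, stood at 144 CPM in members, 63.5 CPM in the reference, 458 CPM in the sensitive and 306 CPM in the intermediate resistant library, a ratio of 2.26 (2.14 to 2.40). HAND1, a basic helix-loop-helix factor, followed the same order at 207, 106, 454 and 347 CPM (ratio 1.96). INSM2, a zinc finger relative of INSM1, had a ratio of 3.002 (2.79 to 3.23), and LMO1, a LIM-only cofactor known as a neuroblastoma oncogene, 2.99 (2.76 to 3.23). INSM1 itself was lower, at 12.3 CPM against 21.3 CPM. The core factors PHOX2A (386 against 259 CPM), HAND2 (326 against 265 CPM) and GATA3 (127 against 105 CPM) did not reach a ratio of 1.5 either way, though PHOX2A was near it. MYCN, the amplified oncogene of this line, stood at 428 CPM in members and 452 CPM in the reference, a ratio of 0.95 (0.92 to 0.97), beside 1247 CPM in the sensitive library.

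Among genes at 50 CPM or more, the 12 highest ratios also included IGF2, ICA1 and CPNE8. IGF2, an insulin-like growth factor, stood at 978 CPM in members, 386 CPM in the reference, 453 CPM in the sensitive and 1242 CPM in the intermediate resistant library, a ratio of 2.53 (2.48 to 2.59). The median member held 7 IGF2 UMIs at 9500 UMIs and the median reference cell 1. Its antisense transcript IGF2-AS had a ratio of 2.42, but reads of overlapping genes may not be separable and this value is uncertain. ICA1, a protein of dense core vesicle formation, had a ratio of 2.40, and CPNE8, a copine, 2.25. Below 50 CPM, and named after their values were seen, were PRCD (28.6 against 6.04 CPM), the serotonergic factor FEV (38.4 against 12.9 CPM) and KLK4 (42.6 against 15.2 CPM).

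In the family of RGS5 itself, RGS4 was the gene that differed most. RGS4, a close relative that acts on the same classes of G alpha subunits, stood at 131 CPM in members, 26.3 CPM in the reference, 354 CPM in the sensitive and 516 CPM in the intermediate resistant library. Its ratio was 4.998 (4.66 to 5.36), with members between the reference and the other libraries. RGS4 was seen in 53.8% of members and 15.1% of reference cells at equal depth. Of 6 measured genes among RGS proteins and related modulators, 2 were higher (RGS4 and RGS16) and 1 was lower (GPSM2), against 1.29% and 2.07% of all measured genes. RGS16 (40.9 against 26.3 CPM, ratio 1.56) and GPSM2 (31.6 against 48.5 CPM, ratio 0.65) were near the limit, and lost the call in 3 and 7 of 11 other settings. RGS2, RGS10 and RGS19 had ratios of 1.16, 0.89 and 1.04.

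Among the G proteins, GNAS, the stimulatory alpha subunit that raises cAMP, stood at 1977 CPM in members, 1232 CPM in the reference, 929 CPM in the sensitive and 960 CPM in the intermediate resistant library. Its ratio was 1.60 (1.58 to 1.63), and members had the highest level of the 4 sets of cells. It was the single call among 10 measured G protein genes, whose median log2 ratio was -0.17, close to that of all genes, and it missed the limit (1.45) against all cells under 6 RGS5 UMIs. GNAI2 and GNAI3, inhibitory alpha subunits that RGS5 acts on, had ratios of 0.75 and 0.83. Among 3 measured receptors, SSTR2, a receptor of somatostatin, was lower in members at 31.6 CPM against 57.3 CPM (ratio 0.55, 0.50 to 0.61).

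The genes that were lower in RGS5-retaining cells were led by proneural factors and a neurofilament. Of 9 measured proneural and progenitor factors, 0 were higher and 5 were lower (NEUROD1, HES6, SOX2, NEUROD4 and ID1), against 1.29% and 2.07% of all measured genes. The median log2 ratio of these factors was -0.95. NEUROD1, a basic helix-loop-helix factor of neuronal and endocrine differentiation, stood at 30.7 CPM in members, 155 CPM in the reference, 4.48 CPM in the sensitive and 6.33 CPM in the intermediate resistant library. The reference was 5.05-fold higher (4.59 to 5.58), and members lay between it and the other libraries. NEUROD4, a relative, stood at 49.4 CPM against 96.3 CPM, beside 2.97 CPM in the intermediate resistant library. HES6, which promotes neuronal differentiation by opposing HES1, stood at 167 CPM against 382 CPM, a 2.29-fold difference (2.20 to 2.39), beside 44.5 and 48.7 CPM in the sensitive and intermediate resistant libraries.

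NEFM, the medium neurofilament subunit, stood at 159 CPM in members and 938 CPM in the reference, beside 64.8 CPM in the sensitive and 57.6 CPM in the intermediate resistant library. The reference was 5.90-fold higher (5.65 to 6.16). The 2 groups overlapped in single cells: at equal depth the median was 1 NEFM UMI in members and 3 in the reference, and the highest cells held 34 and 96. Of 22 measured cytoskeleton and synapse genes, 4 were lower (NEFM, ELAVL2, SYT1 and ELAVL4) and 2 were higher, against 2.07% and 1.29% of all measured genes. The median log2 ratio of this list was -0.22, against -0.14 for all measured genes. The higher genes were STMN2, a tubulin-binding protein of growing axons (129 against 68.4 CPM), and NSG2, a neuronal endosome protein (36.6 against 9.68 CPM). NEFH, the heavy neurofilament subunit, was at 62.1 CPM against 68.5 CPM.

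RAB31, a small GTPase of vesicle traffic, stood at 15.3 CPM in members and 93.7 CPM in the reference, a 6.12-fold difference (5.34 to 7.05). Also among the 12 lowest were GKAP1, C11orf96, GADD45A, PPAPDC1A, ZNF385D, ATP1B1 and HPCA, 2.11-fold to 3.27-fold lower. Below the level of 50 CPM, and named after their values were seen, PPP1R17 (1.21 against 30.6 CPM) and PDZRN4 (2.35 against 37.6 CPM) were the lowest of the lower genes by ratio. Neither reached 1 CPM in the sensitive or intermediate resistant library.

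Among growth and stress genes, most calls were lower in members. Of 18 ERK output genes only 2 were measured, and both were lower, against 2.07% of all measured genes. CCND1, cyclin D1, stood at 202 CPM against 367 CPM (1.82-fold lower, 1.75 to 1.89). ETV1, an ETS factor, stood at 15.4 CPM against 23.8 CPM (1.55-fold lower, a call lost in 4 of 11 settings). The other genes of the list were under 20 CPM in both groups, so the list as a whole was not read. Of 17 stress response genes, 3 were lower: GADD45A (49.3 against 128 CPM), CDKN1A (19.7 against 44.8 CPM), which encodes the cell cycle inhibitor p21, and JUN (23.2 against 49.9 CPM). The stress list as a whole was not lower, with a median log2 ratio of 0.05 against -0.14 for all measured genes. At the bar of 25%, 3 of its genes were higher and 5 lower, against 2.82% and 11.7% of all genes. None of the 34 measured S phase genes passed 1.5 in either direction. In G2 and M phase genes 1 of 48 was lower (CDC20, 51.7 against 84.2 CPM), 20 (against 11.7% of all genes) were lower at the bar of 25%, and the median log2 ratio was -0.28. CCNB1 and CCNB2, the B-type cyclins of mitosis, stood at 71.2 against 105 CPM and 47.5 against 66.9 CPM. Among 17 hypoxia and glycolysis genes, EPAS1, which encodes HIF-2 alpha, was the only call, at 26.2 CPM against 7.10 CPM (ratio 3.70, 3.19 to 4.28). It was below the 126 and 111 CPM of the sensitive and intermediate resistant libraries. The 81 measured ribosomal protein genes had a median log2 ratio of 0.19, and none passed 1.5.

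Since RGS5 marks mural cells in tissue, the mural list was read as a whole. Of its 21 genes, 2 were measured, and 1 of them, NDUFA4L2, a mitochondrial protein induced in low oxygen and common in pericytes, was higher at 47.95 CPM against 10.3 CPM (ratio 4.66, 4.15 to 5.23). The other, CALD1, stood at 134 CPM against 151 CPM. The list summed to 228 CPM in members and 196 CPM in the reference. ABCC9, ANPEP, MYL9 and PLN had 0 UMIs in members, and MYH11, ACTA2, TAGLN, DES, CSPG4, MCAM and HIGD1B were each under 1 CPM in both groups. So were ITGA7 and VTN. Of the mural genes between 1 and 20 CPM, COX4I2 (4.92 against 2.55 CPM, ratio 1.93, 1.42 to 2.60), CNN1 (4.35 against 2.39 CPM, ratio 1.82, 1.32 to 2.49), CD248 (1.57 against 0.771 CPM, ratio 2.03, 1.15 to 3.50) and PDGFRB (12.6 against 8.87 CPM, ratio 1.42, 1.19 to 1.70) had counting intervals above 1. KCNJ8 (15.4 against 13.4 CPM) and NOTCH3 (3.06 against 3.18 CPM) had intervals that include 1. NDUFA4L2 was held by few members: at equal depth 14.9% of them held a UMI, and the richest 78 cells carried 87.8% of it.

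Markers of other cells were scarce as well. None of the 13 immune genes was measured, and these summed to 2.14 CPM in members and 2.53 CPM in the reference. Calls among the other lists were EGFL7 of the endothelial list (39.1 against 24.6 CPM, ratio 1.59) and TWIST1 of the mesenchymal list (87.6 against 56.8 CPM, ratio 1.54), and both lost the call in 3 of 11 settings. VIM, a mesenchymal intermediate filament, was at 3.85 CPM against 3.88 CPM, beside 61.7 CPM in the sensitive library. Members thus carried the adrenergic genes PHOX2A, HAND2, DBH and TH, and most defining mural genes were at or near 0 in them, so they are described here by RGS5 alone. The part of the low mural transcripts in these results was not tested.

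The cells with 1 to 5 RGS5 UMIs belonged to neither group and allow the called genes to be followed between the groups. Fully resistant cells were placed in 5 bins of 0, 1 to 2, 3 to 5, 6 to 11, and 12 or more RGS5 UMIs, holding 3055, 1402, 614, 436 and 336 cells. Of the 65 higher genes, 51 increased at every step, as did 4.39% of all measured genes, and of the 104 lower genes, 85 decreased at every step, as did 22.3% of all. The calls compare the end bins, so these counts follow in part from the choice of genes. Between the bins of 1 to 2 and 3 to 5 RGS5 UMIs, whose cells entered neither group, 62 of the 65 higher genes were higher in the second and 102 of the 104 lower genes were lower, against 28.9% and 71.1% of all genes. TH stood at 158, 233, 348, 398 and 566 CPM in that order, and DBH at 288, 392, 510.4, 529.6 and 728 CPM. CHGA stood at 127, 187, 297, 337 and 716 CPM. NEFM went from 938 over 560.4, 241 and 188 to 118 CPM, and NEUROD1 from 155 over 93.0, 43.5 and 37.0 to 21.9 CPM.

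Some genes departed from an even slope. RGS4 went from 79.6 CPM at 6 to 11 RGS5 UMIs to 203 CPM at 12 or more, and NDUFA4L2 from 20.2 to 86.4 CPM, after 10.3 to 12.6 CPM in the 3 lowest bins. CRH was at 0.675, 2.16, 1.255, 8.09 and 56.5 CPM, so its summed level was highest in the bin richest in RGS5. That sum comes from few cells: at equal depth 6.09% of members held a CRH UMI, and the highest member held 70. MYCN showed no order, at 452, 438, 443, 418 and 441 CPM. At the limit of the rule, cells with exactly 5 and exactly 6 RGS5 UMIs had TH at 421 and 317 CPM, SST at 823 and 711 CPM, RGS4 at 50.9 and 81.1 CPM, and NEFM at 266 and 193 CPM. The limit of 6 lies within a continuous range of RGS5 counts.

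**Figure D3:**
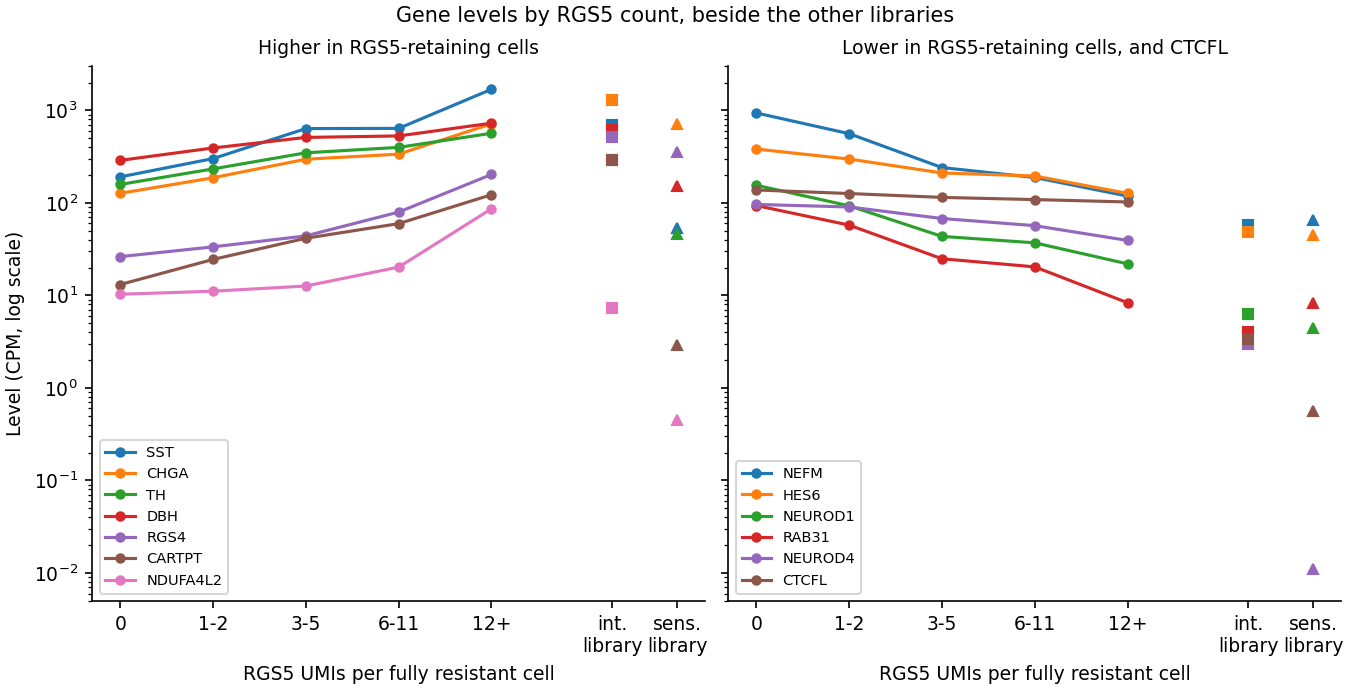
Level (CPM, log scale) of 7 genes higher in RGS5-retaining cells (left) and of 5 lower genes with CTCFL (right) in fully resistant cells binned by RGS5 UMIs (circles and lines), beside the intermediate resistant (squares) and sensitive (triangles) libraries. TH climbs from 158 to 566 CPM over the bins and NEFM descends from 938 to 118 CPM, while CTCFL stays above 100 CPM in every bin.

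Members were next set beside the other states. Genes that an earlier reading of these data had found to differ between the libraries were used; these were picked on the same libraries, so their counts describe the members' position and are no independent evidence. Of 11 measured genes lower in full resistance, 8 were higher in members and 0 lower, with a median log2 ratio of 1.18. They included DOK4, an adaptor protein (27.6 CPM in members and 9.95 CPM in the reference, against 371 CPM in the sensitive library). Of 9 genes higher in the intermediate state, 6 were higher and 0 lower, with a median of 1.09. Of 26 genes higher in full resistance, 12 were lower and 2 were higher (TH and GCHFR), with a median of -0.42.

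Several genes that mark full resistance were within 1.5-fold of the reference in members. CTCFL, a germline paralog of the insulator protein CTCF, stood at 106 CPM in members and 138 CPM in the reference (ratio 0.77, 0.73 to 0.81), against 0.57 CPM in the sensitive and 3.37 CPM in the intermediate resistant library. Over the 5 bins it decreased from 138 to 102 CPM in the 336 cells with 12 or more RGS5 UMIs. MGST1, a microsomal glutathione transferase, stood at 192 against 244 CPM, with 22.2 CPM in the sensitive and 2.79 CPM in the intermediate resistant library, and was down to 153 CPM in the cells with 12 or more RGS5 UMIs. DKK1, a secreted Wnt inhibitor, stood at 143 against 112 CPM, with 17.3 CPM in the sensitive and 4.48 CPM in the intermediate resistant library. Retinoid-binding CRABP1 stood at 569 against 442 CPM, with 105 and 23.4 CPM in these libraries. CTCFL was seen in 60.6% of members and 68.2% of reference cells at equal depth. Genes typical of the sensitive library, such as CAMK2N1 (1.496 against 1.003 CPM, and 67.3 CPM in the sensitive library) and VIM, remained low in both groups.

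**Figure D4:**
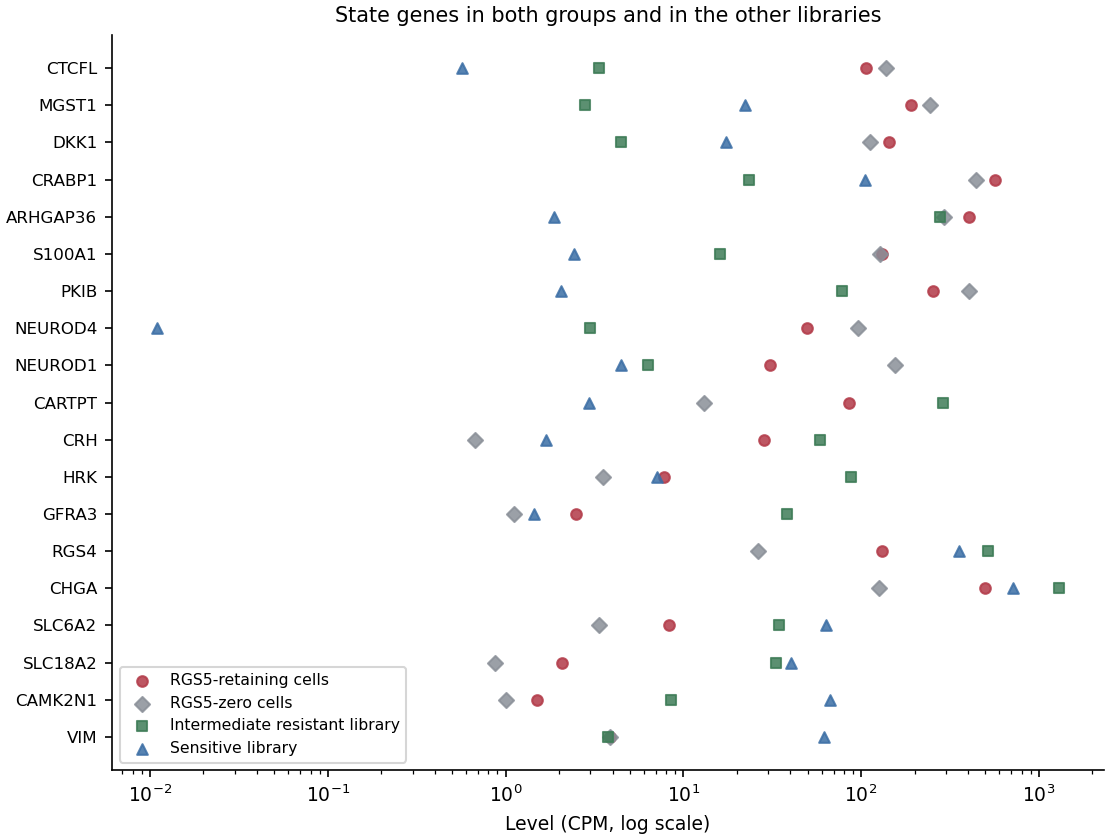
Level (CPM, log scale) of 19 state genes in RGS5-retaining cells (circles), RGS5-zero cells (diamonds) and the intermediate resistant (squares) and sensitive (triangles) libraries. CTCFL, MGST1, DKK1 and CRABP1 are within 1.5-fold in both fully resistant groups and far above the intermediate resistant library, while CARTPT, CRH, RGS4 and CHGA of the members lie between the RGS5-zero cells and the intermediate resistant library.

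The same genes were read in libraries that the rule did not use. Within the sensitive and the intermediate resistant library, the quartile of cells with the highest RGS5 share of UMIs was set against the quartile with the lowest, 1226 and 1459 cells per quartile. RGS5 differed between quartiles by 4569 against 1988 CPM and by 4633 against 1851 CPM. Of the 65 genes higher in RGS5-retaining cells, 53 were measured in the sensitive library, and 20 of these (37.7%) were higher at the bar of 25% and 1 lower, where 15.0% and 6.0% of all genes were. In the intermediate resistant library it was 23 of 55 (41.8%) and 1, against 5.93% and 4.66% of all genes. Of the 104 lower genes, 9 of 50 (18.0%) were lower and 6 (12%) higher in the sensitive library, and 11 of 43 (25.6%) lower and 0 higher in the intermediate resistant library, to be read against the same shares of all genes. Top quartiles were shallower than low quartiles, at a median of 14838 against 19471.5 UMIs (sensitive) and 14715 against 17789 UMIs (intermediate resistant), and the part of depth in these ratios was not tested.

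TH was higher with RGS5 in both libraries, with quartile ratios of 2.08 (1.91 to 2.28) in sensitive and 1.93 (1.87 to 1.99) in intermediate resistant cells. The corresponding ratios were 1.81 and 1.35 for CHGA and 1.17 and 1.44 for RGS4. CARTPT (466 against 206 CPM) and CRH (123 against 27.3 CPM) had ratios of 2.26 and 4.51 in the intermediate resistant library. In the sensitive library both were under the limit of 20 CPM, at 5.46 against 1.94 CPM and 4.23 against 0.930 CPM. SST differed in direction between the libraries, at 1.78 (1.65 to 1.93) and 0.83 (0.81 to 0.84). GNAS was 1.03 and 1.31. Among the lower genes, GADD45A was lower in both (0.77 and 0.75), whereas NEUROD1, under 7 CPM in the top and low quartiles of both libraries, was too low there to be called. MYCN, which did not reach the bar of 25% either way within the fully resistant library, was 1.46 and 1.20.

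**Figure D5:**
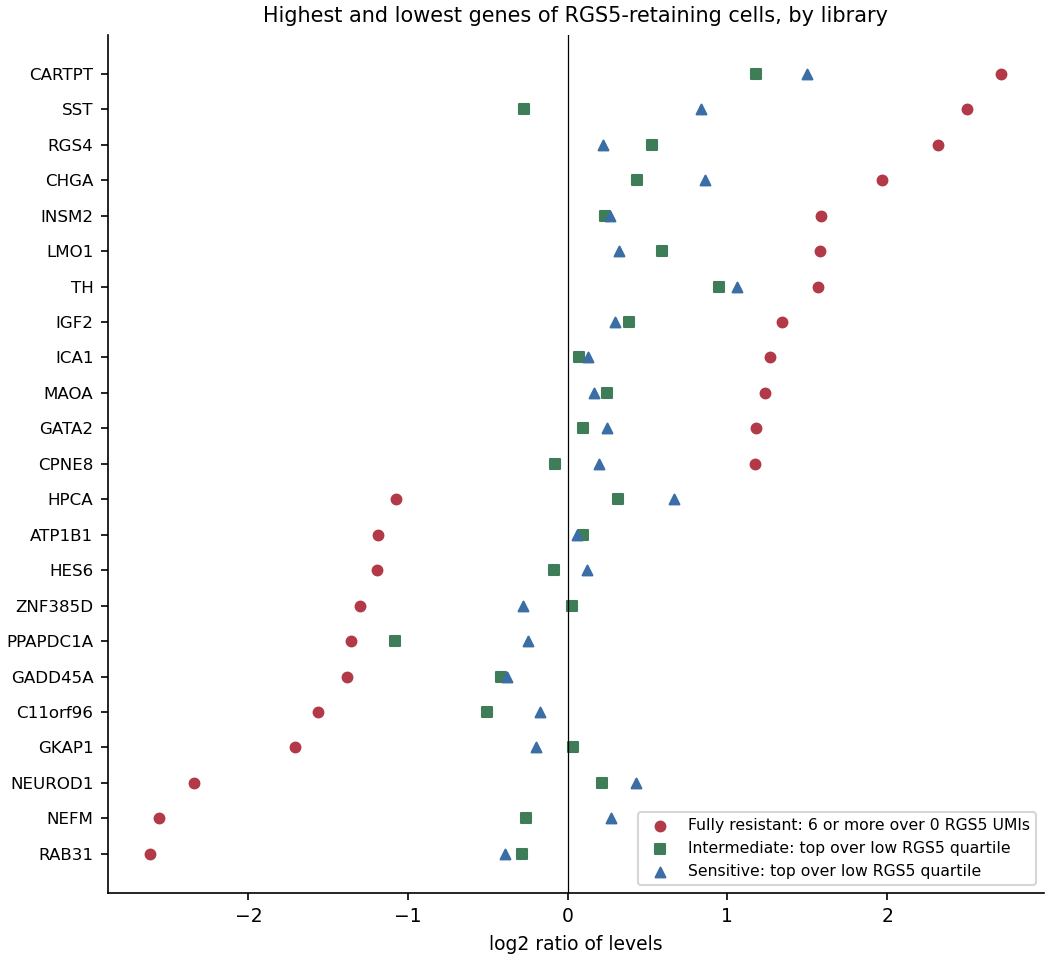
Log2 ratio of the 12 highest and 11 of the 12 lowest genes of RGS5-retaining cells (50 CPM or more in the higher group): members over reference in the fully resistant library (circles), and the top over the low RGS5 quartile in the intermediate resistant (squares) and sensitive (triangles) libraries. CHGA and TH lie right of 0 in all 3 libraries and SST changes side in the intermediate resistant library; genes such as NEUROD1, and CARTPT in the sensitive library, were under 20 CPM in the quartiles.

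Called genes lay on most chromosomes. Gene order came from an annotation of another build, used for order alone, which placed 4993 of the 5034 measured genes. Medians per chromosome ran from a log2 ratio of -0.19 on chromosome 4 to -0.08 on chromosome 22. Calls ran from none of 120 measured genes on chromosome 22 to 5 higher and 5 lower of 139 on chromosome 8. The 40 measured neighbours of RGS5 on chromosome 1, 20 on each side, had a median of -0.15, with 1 higher gene, RGS4, and 2 lower genes, GPR161 and ATP1B1. The 40 measured neighbours of TH on chromosome 11 held 4 higher genes (IGF2, IGF2-AS, RIC3 and LMO1; 1.29% of all measured genes were higher) and 0 lower genes.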

How the data were processed

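The deposited tables hold UMI counts per gene and barcode, as the authors' pipeline wrote them, for 32738 gene rows and 737280 barcodes, with no normalization or cell filter. Reads were processed with bcl2fastq and Cell Ranger on hg19, per the submitters' processing notes, and versions are not given in the sources used here. Groups came from the labelled response, and no per-sample column was left unused (0). Fully resistant cells held 102542465 UMIs, of which members held 14045173 and the reference 51862780.

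UMIs were summed per group and given as CPM of the total without RGS5. Ratios carry exact conditional Poisson intervals; a count of 0 was set to a floor of 3 UMIs. A depth-standardised ratio compared members with the reference rate in 6 strata of UMIs per cell. Scripts were tested on simulated counts. Python 3.11.15, numpy 2.4.6, scipy 1.17.1 and pandas 2.3.3 were used, and TMM and median-of-ratios factors came from edgeR 4.0.16 and DESeq2 1.42.0 in R 4.3.3; these were used for scaling only, without their tests. Doublets were kept.

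Named genes were the 12 highest and 12 lowest ratios at 50 or more CPM, up to 3 genes from each of 22 lists, the detected mural markers and a fixed set (CTCFL, MYCN, ALK, NEUROD1, NEUROD4, TH, RGS4, CAMK2N1, SLC6A2, VIM). Some genes that this rule or the lists cover are not reported here. Other genes named are list members or calls chosen after their values were seen. The members and lists were chosen with earlier results of these data known. Alternatives varied depth, scaling, filters, the fold, the RGS5 limits, shared barcodes and the mitochondrial limit. Promoter motifs, the neighbours of TH, the unevenness over cells, the order of all genes over RGS5 bins and the free RNA of 6 genes were added after seeing the data.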

Additional observations from a re-analysis of the deposited data

How the results depend on the processing

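Of the counts of genes, those that moved by over 1.5 times did so with the filter, the fold or the scaling. Higher genes numbered 142 when totals left out mitochondrial and ribosomal protein genes, which also let genes of lower level pass the CPM filter. They numbered 113 at 10 CPM or more, 29 at 50 CPM or more, 1226 with no filter, 142 at a difference of 25% and 26 at a ratio of 2. Lower genes numbered 176 at 10 CPM, 51 at 50 CPM, 1670 with no filter, 588 at 25% and 27 at 2. The other alternatives gave 45 to 91 higher and 70 to 148 lower genes. The number of RGS5-retaining cells was 408 after thinning to 9500 UMIs and 423 at a limit of 10 RGS5 UMIs, and 1104 at a limit of 4. Of 926 ratios of named genes under alternatives, 208 lay outside the main counting interval. No call of a named gene reversed under the alternatives run, and the other calls were not checked for this. Of the list medians, 52 of 230 moved by over 0.1 on the log2 scale. Median signs of the S phase, Schwann, heterotrimeric G protein and hypoxia lists changed with scaling or with a limit of 4 RGS5 UMIs. Their main medians were -0.11, -0.04, -0.17 and 0.05 in that order. No paired analysis was possible because each state had 1 library. Genes under 20 CPM were not called, by the filter used here. ALK was among them, at 2.35 against 0.848 CPM (ratio 2.77, 1.71 to 4.45), from 33 UMIs in members and 44 in the reference.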
